A study of Mus musculus with 2 samples.

Results

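The phagocyte NADPH oxidase subunits examined here were Cybb, Cyba, Ncf1, Ncf4, Rac1 and Rac2, 6 of the 22020 gene symbols in the table, and each was found there as 1 RefSeq transcript. They were chosen by name, with earlier results of these data known. Their levels were compared in LSK cells of Utx/p53 DKO and p53 KO mice. LSK cells are sorted blood-forming cells without lineage markers that carry c-Kit and Sca-1, and they hold the blood stem cells and early multipotent progenitors. The Utx/p53 DKO mice lacked Utx (Kdm6a, an X-linked histone H3 lysine 27 demethylase) and p53, the p53 KO mice lacked p53 alone, by their labels, and all were C57BL/6 mice of 8 weeks, so both groups shared the labelled loss of p53. There was 1 RNA-seq library per genotype, with 19926294 reads in Utx/p53 DKO and 17088105 in p53 KO. The sources used here do not say what drove the Utx deletion or how many mice gave each library. No value below has a replicate check, no test of the genotypes was possible, and 95% intervals cover counting error only.

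The oxidase moves electrons from NADPH across a membrane to oxygen and makes superoxide, which neutrophils, monocytes and macrophages use against microbes. Its membrane part is a flavocytochrome of Cybb (gp91phox, the catalytic chain) and Cyba (p22phox, the partner that stabilises it). In activated cells the cytosolic subunits Ncf1 (p47phox, the organizer that docks on p22phox) and Ncf4 (p40phox, which binds a membrane phosphoinositide) join it together with a GTP-bound Rac protein. Rac2 is the Rac of blood cells, and Rac1 is made in nearly all cells.

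The promoters of Cybb, Cyba and Ncf1, the 3 members at least 2-fold higher in Utx/p53 DKO (6.6% of all genes averaging 1 RPKM or more were), are shown because the RefSeq promoter table holds these members and no others. The 250 bases before the RefSeq start of each are given 5′ to 3′ in the direction of transcription, on build GRCm38.p6, with motif matches in capitals. All lie on the minus strand, Cybb at chrX:9469325-9469574, Cyba at chr8:122432941-122433190 and Ncf1 at chr5:134229626-134229875.
Cybb: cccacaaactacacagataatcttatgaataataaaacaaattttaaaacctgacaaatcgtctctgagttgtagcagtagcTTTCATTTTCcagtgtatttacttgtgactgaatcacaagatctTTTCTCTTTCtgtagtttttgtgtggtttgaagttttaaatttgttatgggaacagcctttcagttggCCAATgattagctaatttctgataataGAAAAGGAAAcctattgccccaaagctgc
Cyba: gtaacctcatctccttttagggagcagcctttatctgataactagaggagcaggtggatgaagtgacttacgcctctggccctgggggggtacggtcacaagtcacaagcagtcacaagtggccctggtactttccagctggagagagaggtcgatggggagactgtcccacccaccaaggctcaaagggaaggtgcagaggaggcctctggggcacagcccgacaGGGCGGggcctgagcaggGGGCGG
Ncf1: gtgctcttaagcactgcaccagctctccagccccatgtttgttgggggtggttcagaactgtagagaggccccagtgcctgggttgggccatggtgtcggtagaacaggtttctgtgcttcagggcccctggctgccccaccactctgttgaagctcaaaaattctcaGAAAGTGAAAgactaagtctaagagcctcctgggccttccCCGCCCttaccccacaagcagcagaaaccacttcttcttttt

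The capitals mark matches of 3 of the 5 motifs searched on both strands, and no match overlapped another. A pair of GAAA half-sites with any 2 bases between them, of the kind read by interferon regulatory factors, had 3 matches before the start of Cybb, at -168 to -159, -124 to -115 and -29 to -20 from the start, and 1 before Ncf1, at -82 to -73. It was present in the same window of 2.98% of 32851 mouse promoters, and at least 3 matches stood in 4 of them (0.0122%), a count made after the Cybb matches were seen. CCAAT stood once before Cybb, at -56 to -52 (33.8% of promoters). GGGCGG, a GC box, stood at -24 to -19 and -6 to -1 before Cyba and, on the other strand, at -42 to -37 before Ncf1 (32.7% of promoters). GAGGAA, a core read by PU.1, had no match in the 250 bases of any of the 3 promoters (23.3% of all promoters). It had 1 match on the other strand of Cybb from 10 to 15 bases into the transcript. Only this exact string was searched, so other forms of a PU.1 site were not counted. TATAAA was in none of the 3 windows (12.4% of promoters).

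Both chains of the membrane flavocytochrome were higher in the Utx/p53 DKO library. Cybb, on chromosome X, was at 156 RPKM in Utx/p53 DKO (14787 reads) and at 32.9 RPKM in p53 KO (2674 reads). Its RPKM, a read count divided by transcript length and by the library's reads, was 4.74-fold higher (95% interval 4.55 to 4.94), a difference of 2.21 on the log2(RPKM + 1) scale that is used for all log2 differences here, and 181 of the 11356 measured genes (1.59%) had a larger increase. A gene counted as measured when it averaged at least 1 RPKM over both libraries. Cyba, on chromosome 8, was at 213 RPKM in Utx/p53 DKO (3223 reads) and at 86.7 RPKM in p53 KO (1124 reads), which was 2.46-fold higher (95% interval 2.30 to 2.63; log2 difference 1.29). The gain in Cybb, 123 RPKM, was about as large as that in Cyba, 126 RPKM, from a lower level in p53 KO.

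Of the cytosolic subunits, Ncf1 differed more than Ncf4. Ncf1, on chromosome 5, was at 97.1 RPKM in Utx/p53 DKO (5267 reads) and at 38.3 RPKM in p53 KO (1782 reads), 2.53-fold higher (95% interval 2.40 to 2.68; log2 difference 1.32). Ncf4, on chromosome 15, was at 65.7 RPKM in Utx/p53 DKO (1903 reads) and at 38.4 RPKM in p53 KO (954 reads), 1.71-fold higher (95% interval 1.58 to 1.85; log2 difference 0.76).

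The Rac genes differed least. Rac1, on chromosome 5, was at 83.8 RPKM in Utx/p53 DKO (3787 reads) and at 52.7 RPKM in p53 KO (2044 reads), 1.59-fold higher (95% interval 1.51 to 1.68; log2 difference 0.66). Rac2, on chromosome 15, was at 273 RPKM in Utx/p53 DKO (16514 reads) and at 255 RPKM in p53 KO (13222 reads), 1.07-fold higher (95% interval 1.05 to 1.10; log2 difference 0.10). Scaling the libraries to equal totals of RPKM gave Rac2 a log2 difference of -0.27, so its direction depended on the scaling. The Rac proteins are close relatives, and the sources used here do not say how reads matching several genes were treated.

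**Figure D1:**
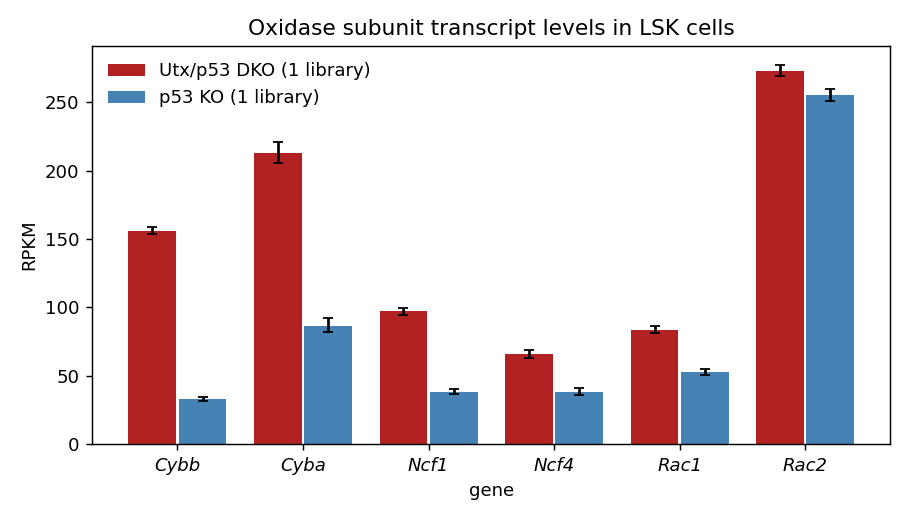
Bars give the RPKM of each oxidase subunit gene in the Utx/p53 DKO library (red) and the p53 KO library (blue), with exact Poisson 95% intervals of the read count. Cybb was at 156 RPKM in Utx/p53 DKO and 32.9 in p53 KO, whereas Rac2 was at 273 and 255 RPKM in the same libraries.

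Thus 3 of 6 members, Cybb, Cyba and Ncf1, were at least 2-fold higher in Utx/p53 DKO and 0 were at least 2-fold lower, against 6.6% of all 11356 genes higher and 13.5% lower. Among the 1379 genes at least as abundant as Ncf4, the member with the lowest mean, 11.9% were higher and 6.02% lower. The members nearest to the 2-fold line were Cyba above it, at a log2 difference of 1.29, and Ncf4 below it, at 0.76. The median log2 difference of the members was 1.02, beside -0.24 for all genes and 0.14 for the genes as abundant as the members. The summed RPKM of the members was 889 in Utx/p53 DKO and 504 in p53 KO, 1.76-fold higher. In the authors' deposited table, whose normalization raises every ratio by 1.52-fold relative to RPKM, the log2 fold changes were 2.85 for Cybb, 1.94 for Ncf1, 1.90 for Cyba, 1.38 for Ncf4, 1.27 for Rac1 and 0.70 for Rac2. On that scale 5 members were at least 2-fold higher, against 19.6% of all genes (8.85% lower). With the libraries scaled to equal totals of RPKM, Cybb alone remained at least 2-fold higher, with Cyba at a log2 difference of 0.92 and Ncf1 at 0.95, against 4.39% of all genes (23.9% lower). A 3-fold rule left Cybb alone, against 3.25% of all genes higher and 4.34% lower, and a 1.5-fold rule took in 5 members, against 13% higher and 29.6% lower. The GFOLD value in the authors' deposited table, a log2 fold change shrunk for counting error, ran from 0.66 for Rac2 to 2.78 for Cybb.

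The order of the levels differed through Cybb and Ncf1. In Utx/p53 DKO the order was Rac2, Cyba, Cybb, Ncf1, Rac1 and Ncf4, with no overlap between the counting intervals of neighbours. In p53 KO it was Rac2, Cyba, Rac1, Ncf4, Ncf1 and Cybb, and the intervals of Ncf4 (36.0 to 40.9 RPKM) and Ncf1 (36.6 to 40.1 RPKM) overlapped. Cybb therefore stood at rank 415 of the 11356 genes by RPKM in Utx/p53 DKO and at rank 2217 in p53 KO. Rac2 stood at rank 208 in Utx/p53 DKO and at rank 170 in p53 KO. Cybb made up 17.6% of the members' summed RPKM in Utx/p53 DKO and 6.54% in p53 KO, while the share of Rac2 was 30.7% in Utx/p53 DKO and 50.6% in p53 KO.

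Ratios between subunits within a library do not depend on how the libraries are scaled, and 7 such pairs were compared. Cybb stood at 0.733 of the RPKM of its partner Cyba in Utx/p53 DKO (95% interval 0.705 to 0.761) and at 0.380 in p53 KO (0.354 to 0.408), a change of 1.93-fold (95% interval 1.78 to 2.09). Relative to Rac2, Cybb was at 0.572 in Utx/p53 DKO and 0.129 in p53 KO, a change of 4.43-fold (4.22 to 4.64). The Ncf1 to Ncf4 ratio was 1.48 in Utx/p53 DKO and 0.998 in p53 KO, a change of 1.48-fold (1.35 to 1.63). Both cytosolic genes thus had nearly equal RPKM in p53 KO and unequal RPKM in Utx/p53 DKO. The Rac2 to Rac1 ratio was 3.26 in Utx/p53 DKO and 4.83 in p53 KO, a change of 0.674-fold (0.636 to 0.715). Relative to Ncf1, Cybb was at 1.61 in Utx/p53 DKO and 0.859 in p53 KO (1.87-fold, 1.75 to 2.00), and relative to Rac2, Ncf1 was at 0.356 in Utx/p53 DKO and 0.150 in p53 KO (2.37-fold, 2.23 to 2.51). The Cyba to Ncf1 ratio was 2.19 in Utx/p53 DKO and 2.26 in p53 KO, a change of 0.970-fold whose counting interval of 0.889 to 1.06 includes 1.

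**Figure D2:**
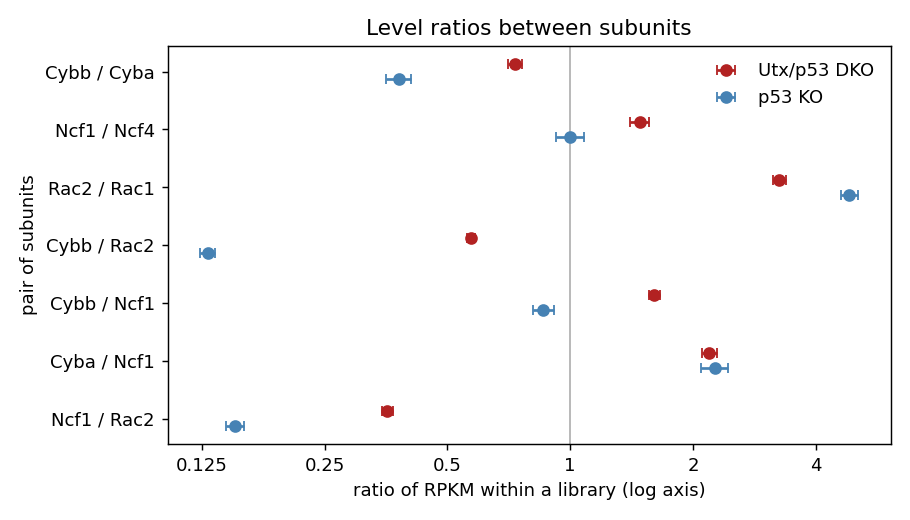
Points give the ratio of RPKM between 2 subunit genes within the Utx/p53 DKO library (red) and within the p53 KO library (blue) on a log axis, with exact binomial 95% intervals from the reads. The Cybb to Rac2 ratio was 0.572 in Utx/p53 DKO and 0.129 in p53 KO, while the Cyba to Ncf1 points, at 2.19 and 2.26, overlapped.

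Genes that regulate the assembled oxidase mostly lay within 2-fold. Of 25 genes for regulators, Rac exchange factors and assembly partners, a list chosen with earlier results of these data known, 24 were measured. Of these, 3 were at least 2-fold higher, 2 were at least 2-fold lower and 19 lay within 2-fold, with a median log2 difference of -0.19. The shares of all genes were 6.6% higher and 13.5% lower, and their median was -0.24, so these counts and this median lay near the background. Singled out with their values known, Prex1 and Prkca were 2.37-fold and 2.61-fold lower by plain RPKM. Both lay within 2-fold only through the added 1 RPKM. With 0.1 added instead, 3 genes of the list were higher and 4 lower, against 7.97% and 18.7% of all genes. The proton channel Hvcn1, which balances the charge the oxidase moves, was at 85.1 RPKM in Utx/p53 DKO and 19.4 in p53 KO, 4.38-fold higher (95% interval 4.07 to 4.72) and close to the 4.74-fold of Cybb. Arhgdib, the inhibitor that keeps Rac proteins in the cytosol of blood cells, was at 2211 RPKM in Utx/p53 DKO and 962 in p53 KO (log2 difference 1.20). Lower were Bcr, a GTPase-activating protein for Rac, 3.79-fold with 195 reads in Utx/p53 DKO and 634 in p53 KO, and the Rac-bound kinase Pak1, at 8.87 RPKM in Utx/p53 DKO and 24.7 in p53 KO. The other gene at least 2-fold higher, singled out with its value known, was the kinase Prkcb, at 12.2 RPKM in Utx/p53 DKO and 5.12 in p53 KO. The chaperone of the flavocytochrome, Cybc1, listed under its older symbol BC017643 and also singled out with its value known, was at 46.5 RPKM in Utx/p53 DKO and 49.3 in p53 KO.

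Among receptors and kinases that trigger or restrain the oxidase, the IgG receptor genes Fcgr3 and Fcgr2b had the largest increases. Of 21 genes, 19 were measured, with 7 past 2-fold upwards and 1 past 2-fold downwards (median log2 difference 0.27), beside 6.6% and 13.5% of all genes. With 0.1 added to RPKM in place of 1, 8 were higher and 3 lower, against 7.97% and 18.7% of all genes. Fcgr3, an activating receptor for IgG, was at 173 RPKM in Utx/p53 DKO and 15.2 in p53 KO, 11.4-fold higher (95% interval 10.2 to 12.7). The inhibitory IgG receptor Fcgr2b was at 151 RPKM in Utx/p53 DKO and 16.6 in p53 KO. The beta2 integrin chain Itgb2 was at 90.3 RPKM in Utx/p53 DKO and 18.7 in p53 KO, and the fungal glucan receptor Clec7a was at 27.5 RPKM in Utx/p53 DKO and 5.83 in p53 KO. On the log2(RPKM + 1) scale, the gene at least 2-fold lower was Itgam, the alpha chain that pairs with Itgb2. It was at 2.62 RPKM in Utx/p53 DKO and 7.10 in p53 KO (named after its value was seen).

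No other NADPH oxidase was measured at a level near that of Cybb. Of 9 genes for the other catalytic chains, organizers, activators and maturation factors of the family, 0 reached a mean of 1 RPKM. The most abundant was Noxo1, the organizer of Nox1, at 0.516 RPKM in Utx/p53 DKO (23 reads) and 1.12 RPKM in p53 KO (43 reads). Nox4 had 6 reads in Utx/p53 DKO and 0 in p53 KO, and Duox1 had 0 reads in Utx/p53 DKO and 7 in p53 KO, counts too low to compare.

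Transcription factors and cofactors known to bind oxidase promoters went both ways. Of 16, 15 were measured, of which 4 were at least 2-fold higher and 5 lower (median log2 difference -0.49), beside 6.6% and 13.5% of all genes. The myeloid factors Cebpa, at 15.1 RPKM in Utx/p53 DKO and 2.35 in p53 KO, and Cebpe, at 25.4 in Utx/p53 DKO and 5.01 in p53 KO, were higher. Meis1, a homeobox partner of Hoxa9, was at 15.7 RPKM in Utx/p53 DKO and 134 in p53 KO, and the chromatin organizer Satb1 at 5.12 in Utx/p53 DKO and 19.6 in p53 KO. Named after their values were seen, PU.1, listed under its older symbol Sfpi1, was at 5.50 RPKM in Utx/p53 DKO (146 reads) and 5.44 in p53 KO (124 reads), Irf8 at 123 in Utx/p53 DKO and 49.6 in p53 KO, and Irf1 at 28.2 in Utx/p53 DKO and 67.6 in p53 KO. The PU.1 ratio had a counting interval of 0.789 to 1.29, which includes 1. Of the interferon regulatory factors listed, Irf8 was higher and Irf1 lower. Irf2, also named after its value was seen, was lower but within 2-fold, at 16.2 RPKM in Utx/p53 DKO and 31.0 in p53 KO.

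Marker genes of blood cell types, from stem and progenitor cells to mature cells, differed as well. Each count below stands beside 6.6% of all genes at least 2-fold higher and 13.5% lower. Of 18 granule and monocyte markers found, all of them measured, 12 were at least 2-fold higher and 2 lower, and none was at 0. Against a median log2 difference of 1.02 for the 6 oxidase subunits, that of these markers was 1.76. Their summed level was 70873 RPKM in Utx/p53 DKO and 6333 RPKM in p53 KO, most of it from Elane, Lyz2, Ly6c2 and Mpo in Utx/p53 DKO. The lower members were Ltf, at 5.42 RPKM in Utx/p53 DKO and 32.9 in p53 KO, and Itgam. Of 7 measured macrophage markers, 6 were higher and 0 lower, with the 10 listed summing to 227 RPKM in Utx/p53 DKO and 52.9 RPKM in p53 KO, and Siglec1 at 0 in Utx/p53 DKO. Lower in Utx/p53 DKO were all 7 measured B cell markers, whose list of 8, none at 0, summed to 66.2 RPKM in Utx/p53 DKO and 342 RPKM in p53 KO, and 7 of 10 stem and progenitor markers, with none of the 11 listed at 0 and sums of 500.0 RPKM in Utx/p53 DKO and 1099 RPKM in p53 KO. The sort genes Kit, at 16.0 RPKM in Utx/p53 DKO and 64.2 in p53 KO, and Ly6a (Sca-1), at 281 in Utx/p53 DKO and 255 in p53 KO, were present in both. Phagocytes and B cells are both known to carry oxidase subunits, the lineage-negative sort is meant to remove their mature forms, and the part of any such cells in the oxidase values was not tested. In bulk RNA, fewer cells of a type and less RNA per cell cannot be told apart. Of 9 T and NK cell markers found, none at 0, 8 were measured, with 6 higher and 1 lower and sums of 94.3 RPKM in Utx/p53 DKO and 35.6 in p53 KO. All 6 measured erythroid markers were lower (sums of 74.5 RPKM in Utx/p53 DKO and 638 in p53 KO, with Epor at 0 in Utx/p53 DKO), as were 2 of 4 dendritic cell markers (8.38 RPKM in Utx/p53 DKO and 59.9 in p53 KO, none of the 6 listed at 0). Of the targeted genes, Kdm6a was at 1.26 RPKM in Utx/p53 DKO (132 reads) and 5.32 in p53 KO (479 reads), and Trp53 at 12.9 in Utx/p53 DKO (456 reads) and 19.4 in p53 KO (587 reads). Reads counted over a whole gene can come from exons left in place, so these values do not check either deletion.

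**Figure D3:**
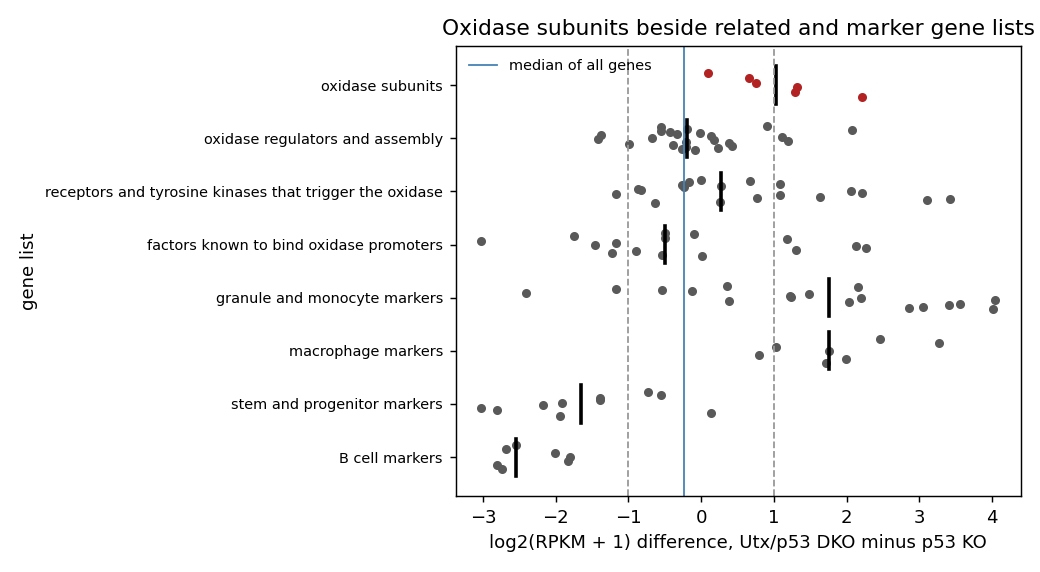
Points give the log2(RPKM + 1) difference, Utx/p53 DKO minus p53 KO, of each measured gene, by gene list, with list medians as black bars, the all-gene median as a blue line and 2-fold as dashed lines. The 6 oxidase subunits (red) lie between 0.10 and 2.21, their regulators on both sides of the all-gene median of -0.24, and the granule and monocyte markers around a median of 1.76.

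The scaling moved all subunits together. Over the settings of pseudocount, filter and scaling, the log2 difference lay between 1.84 and 2.81 for Cybb, 0.92 and 1.89 for Cyba, 0.95 and 1.92 for Ncf1, 0.39 and 1.35 for Ncf4, 0.29 and 1.25 for Rac1 and -0.27 and 0.70 for Rac2. Relative to the all-gene median, the members' median lay between 1.12 and 1.34. The share of all genes at least 2-fold higher or lower also moved, to 16.5% higher and 6.27% lower with the authors' constants and 4.39% higher and 23.9% lower with equal totals of RPKM.

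**Figure D4:**
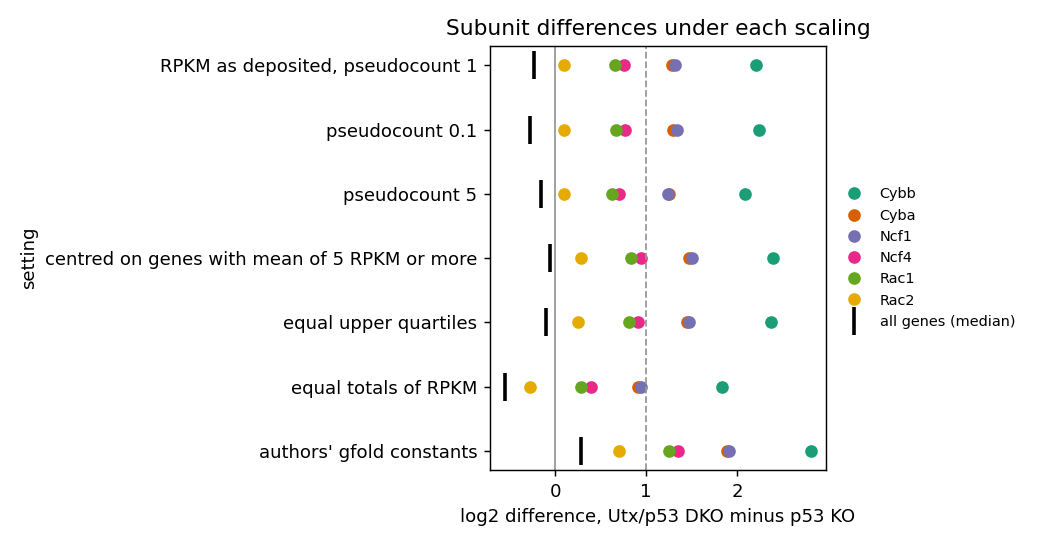
Points give the log2 difference, Utx/p53 DKO minus p53 KO, of each subunit under 7 scalings or pseudocounts, with the all-gene median as a black tick and 2-fold as a dashed line. Cybb stayed past 2-fold in all 7, whereas with equal totals of RPKM Cyba was at 0.92, Ncf1 at 0.95 and Rac2 at -0.27.

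By distance on the log2(RPKM + 1) scale over both libraries, the genes nearest to Cybb were Lgals3, at 142 RPKM in Utx/p53 DKO and 34.9 in p53 KO, and S100a1, at 141 in Utx/p53 DKO and 31.3 in p53 KO. Nearest to Cyba were Napsa and Fam107b, to Ncf1 Dpm3 and Sp100, to Ncf4 Tomm20 and Mpp1, to Rac1 Vapa and Mrps18c, and to Rac2 Ly6a and Hsp90b1. All 12 lay within 0.165 of their member on that scale. With 2 libraries, such nearness says only that levels were alike in both.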

How the data were processed

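RNA of sorted LSK cells from 1 Utx/p53 DKO and 1 p53 KO library was analysed. Per the labels' protocols, oligo-dT selected RNA (50 ng of total RNA) went through SMART cDNA amplification, which can distort low values, and paired reads of 100 bases were made. Mouse build mm9, TopHat2 2.1.0 and bcl2fastq 1.8.4 stand in the submitters' processing notes; the sources used here do not give the strandedness of the counting. Per the file headers, gfold 1.1.4 made the RPKM values of 28344 RefSeq transcripts, the log2 fold change and the GFOLD value that the authors deposited (constants 1 for Utx/p53 DKO and 1.30144 for p53 KO).

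Columns were assigned by the header's order of libraries and checked by whole reads that also had to meet the deposited fold change. With each library's read total, 99.5% of 568 genes gave such reads in both columns, and 0% with the totals swapped. Swapping the totals by itself shifts the fold change, so the 0% was fixed in advance and does not show that whole reads fail. Whole reads were recovered as the transcript length at which both RPKM values and the fold change are met within 1.05 half-units of the last printed digit. Exactly 1 solution was found for 97.2% of 11356 genes and for all 6 members, and none for 0.925%. Ratio intervals are exact (Clopper-Pearson, and conditional for ratios of ratios; 95%, SciPy 1.17.1). These intervals cover counting error only and treat reads as independent. PCR reads without molecular identifiers are not independent, so the intervals may be too narrow. The recovery was tested on simulated data.

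Differences are on the log2(RPKM + 1) scale, on which changes of low genes look smaller, for the transcript with the highest mean, at a mean of at least 1 RPKM and a 2-fold rule. No test of the genotypes was possible with 1 library each. The members and lists were chosen with earlier results of these data known. Named are the members, Kdm6a, Trp53, up to 4 genes of each of the 4 pathway lists by absolute difference and the 2 nearest genes of each member. Beyond that rule, marker genes, genes of the other NADPH oxidases and those said to be singled out or named afterwards were chosen with their values known. Of 5 list symbols absent from the table, 3 were matched by RefSeq transcript (Sykb, Sfpi1, BC017643); Ly6g and Trac were not used here. Sequences are from RefSeq, GRCm38.p6; 3 of 6 members matched, and Ncf4, Rac1 and Rac2 are named only. Chromosomes came from the same release. Some genes chosen at the start are not reported here.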

Additional observations from a re-analysis of the deposited data

How the results depend on the processing

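No paired analysis was possible because each genotype had 1 library. Members at least 2-fold higher numbered 3 as reported, 1 (Cybb) with equal totals of RPKM (4.39% of all genes) or a 3-fold rule (3.25%), and 5 with the authors' constants (16.5%) or a 1.5-fold rule (13%). Members lower numbered 0 in all settings. The members' median log2 difference, 1.02 as reported, was 1.20 when centred on genes averaging 5 RPKM or more, 1.18 with equal upper quartiles, 0.65 with equal totals and 1.62 with the authors' constants. Over the 4 pathway lists together, 14 of 58 measured genes were higher and 8 lower, against 6.6% and 13.5% of all genes. The higher count was 8 with equal totals (4.39% of all genes) and 8 with the 3-fold rule (3.25%). The lower count was 4 with a pseudocount of 5 (4.19% of all genes) and 4 with the authors' constants (6.27%). It was also 4 when genes had to average 5 RPKM (10.95% of such genes). With the 3-fold rule it was 2 (4.34%), and with the 1.5-fold rule 14 (29.6%). The cause of these moves was not tested beyond the shift, filter, pseudocount or fold that defines each setting. The other 38 such values stayed within 1.5 times, or within the counting interval for the median. The depth limits the other NADPH oxidase genes, with at most 43 reads. Without replicates, the spread between mice is unknown.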
